A study of Mus musculus with 4 samples.

Results

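The 7 genes described here were chosen by name from the deposited table of 55401 genes: Hmgcs1, Idi1, Fdft1, Sqle, Lss, Cyp51 and Insig1. Each symbol matched 1 gene, and all 7 passed the filter on low counts that left 15580 genes for testing. All of the 7 but Insig1 encode enzymes of cholesterol synthesis. No measured value entered the choice, but earlier results of these data were known when the genes were put together.

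Cells make cholesterol from acetyl-CoA. The mevalonate steps yield isoprenoid units, these are joined to squalene, squalene is closed to lanosterol, and a series of later enzymes turns lanosterol into cholesterol. Transcription of the whole series is driven by SREBP2, a factor held in the endoplasmic reticulum by SCAP and the INSIG proteins while sterols are plentiful and released to the nucleus when they are scarce. Insig1 is itself a target of SREBP2, so that its product closes a feedback loop on the enzymes.

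RNA-seq was performed on 2 libraries of WT E14 mouse embryonic stem cells (mESCs) and 2 libraries of Haspin-KO E14 mESCs. Haspin is the kinase that phosphorylates histone H3 at threonine 3 in mitosis, and the study asked which transcripts differ once it is lost. The KO lines were made by CRISPR/Cas9 with a pair of gRNAs and puromycin selection, and single clones were picked by their loss of the phosphorylated histone. Both groups were grown in medium with serum, LIF and kinase inhibitors, on mitomycin C-treated mouse embryonic fibroblast feeders or, for assays, on gelatin. The labels do not say which clone each KO library came from, so that the loss of Haspin and a difference between clones cannot be told apart. Nothing in them says that the replicates were separate cultures, so that every p-value here measures only the spread between these 4 libraries, which may be technical.

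The counts summed to between 14207828 and 21834847 per library, and the KO libraries were the shallower ones. Haspin itself had 875 and 619 counts in WT and 149 and 209 in KO, a log2 fold change of -1.60 ± 0.16 (SE, n = 2 libraries per group, adjusted p = 0.00154 by the quasi-likelihood test of edgeR). All 10 mESC markers examined were expressed, with Pou5f1 at 477 and 455 FPKM (counts divided by exonic length and library total) in WT and 420 and 430 FPKM in KO, and none of the 10 passed an adjusted p of 0.05. Of these 10 mESC markers, 8 had fitted values below 0 in KO and 2 above. Both KO libraries lay below both WT libraries for 4 of the 10, against 26.9% of all genes tested. Of 12 fibroblast markers, 10 were tested and all 10 had fitted values below 0 in KO. Past an adjusted p of 0.05 were 7 of these 10, against 2.5% of all genes tested. The summed level of the 12 markers was 231 and 178 CPM (read counts scaled to library size) in WT and 65.6 and 64.0 CPM in KO. Among the defining genes, Postn had 171 and 77 counts in WT and 0 in both KO libraries, Col1a1 had 1063 and 575 against 24 and 24, and Lum was at 0 in all 4. For Col5a1, Thy1 and Fbn1 the groups overlapped. The part of these cells in the values below was not tested, and in bulk RNA fewer cells of a type and less RNA per cell cannot be told apart.

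The promoters of genes under SREBP2 are known for sterol regulatory elements, which SREBP2 binds together with the factors NF-Y and Sp1. RefSeq promoters of the GRCm38.p6 assembly were matched by symbol for 5 of the 7 genes and not for Sqle and Fdft1. Each ran from 250 bases before the RefSeq start of the gene to 50 bases after it. The motifs were chosen with the letters of these promoters in view and were searched on both strands. The sterol regulatory element written as TCACNCCAC was found in the Hmgcs1 promoter only, 1 of 5, against 1.24% of all 32851 promoters. Its shorter core CACNCCAC, which lies inside the longer motif, was found in Hmgcs1 and Insig1, 2 of 5, against 6.24% of all promoters. The CCAAT box, the site of the factor NF-Y, was present in 5 of 5 against 37.4% of all promoters, and the GC box GGGCGG was also present in 5 of 5 against 35.7%. The E-box CACGTG was found in Insig1 alone of the 5, against 7.15% of all promoters. Among 12 other enzymes of sterol synthesis with a promoter, 0 held the longer element, 1 held the core, 11 held CCAAT, 11 held the GC box and 3 held the E-box. These matches describe letters and not bound sites. The shares over all promoters were not limited to the genes tested and not matched for GC content.

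The promoters of 3 genes are shown over the 250 bases before the RefSeq start, 5′ to 3′ on the strand of the gene, because they differ in these elements. Hmgcs1 has the full element and several CCAAT boxes, and Insig1 has the core near the RefSeq start. Lss has a CCAAT box without the core, as do Cyp51 and Idi1, whose promoters are not shown. Capitals mark CACNCCAC and CCAAT on either strand. The windows are chr13:119690101-119690350, chr5:28071162-28071411 and chr10:76531355-76531604, all on the plus strand of GRCm38.p6.
Hmgcs1: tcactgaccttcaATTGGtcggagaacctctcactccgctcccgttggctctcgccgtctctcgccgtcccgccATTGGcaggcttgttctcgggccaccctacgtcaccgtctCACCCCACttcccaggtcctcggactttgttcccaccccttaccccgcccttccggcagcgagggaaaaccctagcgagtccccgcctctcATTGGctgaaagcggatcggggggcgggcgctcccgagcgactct
Insig1: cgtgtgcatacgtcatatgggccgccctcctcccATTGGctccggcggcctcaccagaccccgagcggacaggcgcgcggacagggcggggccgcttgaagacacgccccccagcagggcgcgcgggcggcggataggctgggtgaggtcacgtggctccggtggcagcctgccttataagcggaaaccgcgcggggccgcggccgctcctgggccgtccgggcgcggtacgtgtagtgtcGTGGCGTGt
Lss: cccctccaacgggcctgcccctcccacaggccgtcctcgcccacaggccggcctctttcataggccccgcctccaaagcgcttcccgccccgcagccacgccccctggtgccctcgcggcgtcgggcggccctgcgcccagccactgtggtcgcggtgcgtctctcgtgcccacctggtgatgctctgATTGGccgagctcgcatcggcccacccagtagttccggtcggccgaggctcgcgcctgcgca
The full element of Hmgcs1 began 137 bases before the RefSeq start, and 3 of the 4 CCAAT boxes of its 300-base promoter lie in the stretch shown. The Insig1 core began 9 bases before the RefSeq start. For all 3 genes shown, the RefSeq start differs from the gene start in the deposited table. The deposited Insig1 gene starts at chr5:28071363, within the window shown, so that the Insig1 core lies inside the gene as deposited.

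In the comparison of Haspin-KO with WT fitted without a replicate block, none of the 7 genes passed an adjusted p of 0.05, at any fold. With edgeR, 0 of 7 were called at an adjusted p under 0.05 and a fold over 2, where 0.327% of all genes tested were called higher and 0.501% lower. Without the fold limit the count was still 0 of 7, where the background was 2.5%. DESeq2 also gave 0 of 7, with 465 of all genes past its adjusted threshold. Limma on log2(FPKM + 0.1) and on log2(FPKM + 1) gave 0 of 7 as well, but they called only 42 and 0 of all genes and missed Haspin itself, so that these counts say nothing about the 7. At an unadjusted p under 0.05 there was 1 gene of the 7, Fdft1, where 20.8% of all genes tested passed. The median log2 fold change of the 7 was 0.01, with 4 fitted values above 0 and 3 below, and the median of all genes tested was -0.0039. The 95% confidence intervals of the 7 genes together ran from 0.747-fold to 1.27-fold, so that each of the 7 intervals left out a change of 2-fold in either direction. The summed level of the 7 was 709 and 637 CPM in WT and 674 and 641 CPM in KO, a mean of 673 ± 50.8 CPM against 657 ± 23.9 CPM (SD, n = 2), and the groups overlapped. In CPM both KO libraries lay below both WT libraries for 2 of the 7, Fdft1 and Lss, where 26.9% of all genes tested did so, and above them for 0 of the 7, where 25.3% did so.

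**Figure D1:**
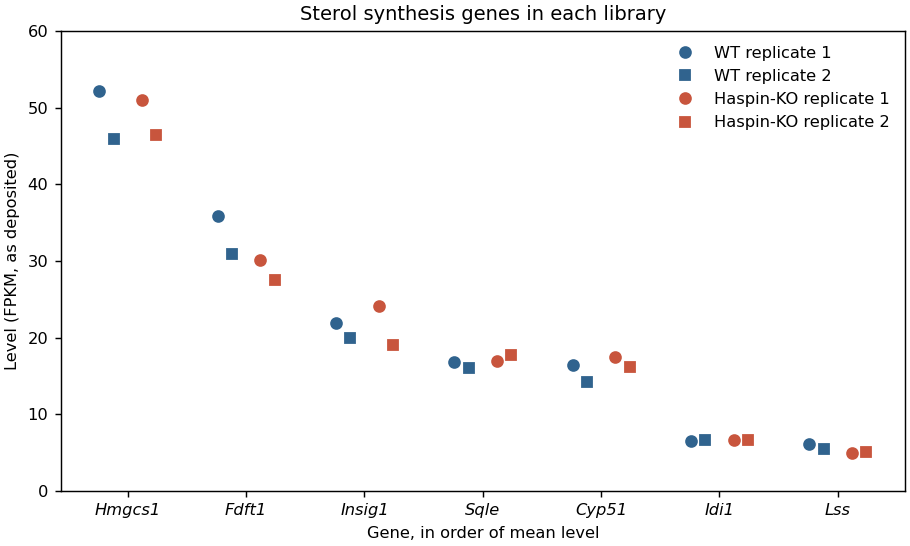
Level of each of the 7 genes as deposited FPKM (y axis, linear) in the 4 libraries, with WT in blue, Haspin-KO in red, replicate 1 as circles and replicate 2 as squares. Levels ran from about 5 FPKM for Lss to 52.2 FPKM for Hmgcs1, and the WT and KO points overlapped for Hmgcs1, Insig1 and Cyp51, lay lower in KO for Fdft1 and Lss, and lay slightly higher in KO for Sqle and Idi1.

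Hmgcs1 encodes the cytosolic HMG-CoA synthase, an early enzyme of the mevalonate steps. The gene (ENSMUSG00000093930, mm10 chr13:119690379-119708260, plus strand) was at 52.2 and 46.0 FPKM in WT and at 51.0 and 46.5 FPKM in KO, from 5232, 3687, 3329 and 3081 counts. The higher library of each group was replicate 1, and the groups overlapped. The log2 fold change was -0.02 ± 0.08 (SE, 95% interval -0.20 to 0.17, adjusted p = 0.941, edgeR). Idi1 encodes isopentenyl diphosphate isomerase, which interconverts the isoprenoid building blocks. Idi1 (ENSMUSG00000058258, mm10 chr13:8885501-8892451, plus strand) was at 6.52 and 6.64 FPKM in WT and at 6.65 and 6.68 FPKM in KO, from 499, 406, 331 and 338 counts. Both KO libraries lay just above both WT libraries in FPKM, while in CPM scaled by TMM, the scale of the test, the groups overlapped. Its log2 fold change was 0.01 ± 0.11 (95% interval -0.24 to 0.27, adjusted p = 0.959, edgeR), and with 331 counts in its lowest library the counting error alone was 5.50%.

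Fdft1 encodes squalene synthase, which joins farnesyl diphosphate units and commits them to sterols. Fdft1 (ENSMUSG00000021273, mm10 chr14:63145150-63179578, minus strand) was at 35.9 and 31.0 FPKM in WT and at 30.2 and 27.5 FPKM in KO, from 3226, 2223, 1765 and 1633 counts. Both KO libraries lay below both WT libraries, and the gap between the nearest libraries was smaller than the gap between the WT libraries. The log2 fold change was -0.22 ± 0.09 (95% interval -0.42 to -0.02, adjusted p = 0.210, edgeR). Fdft1 shares 774 exonic bases, 18.8% of its exonic length, with Ctsb, a cathepsin gene on the opposite strand, and whether reads were counted by strand is not given in the sources used here. Ctsb was at 172 and 174 CPM in WT and 134 and 135 CPM in KO and fell by 0.36 ± 0.07 on the log2 scale (adjusted p = 0.0329, edgeR). Its part in the Fdft1 counts was not tested.

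Sqle encodes squalene epoxidase, an oxygen-dependent and rate-limiting step. Sqle (ENSMUSG00000022351, mm10 chr15:59315077-59331192, plus strand) was at 16.8 and 16.0 FPKM in WT and at 17.0 and 17.7 FPKM in KO, from 2034, 1551, 1336 and 1420 counts. Both KO libraries lay above both WT libraries in FPKM, but in CPM the groups overlapped, with WT replicate 1 at 93.1 CPM above KO replicate 1 at 93.0 CPM. Sqle had a log2 fold change of 0.08 ± 0.08 (95% interval -0.10 to 0.26, adjusted p = 0.631, edgeR). Lss encodes lanosterol synthase, which closes the epoxide into the first sterol of the pathway. Lss (ENSMUSG00000033105, mm10 chr10:76531588-76557138, plus strand) was at 6.09 and 5.41 FPKM in WT and at 4.98 and 5.11 FPKM in KO, from 1434, 1019, 764 and 796 counts. Both KO libraries were below both WT libraries, and the WT libraries were farther apart than the KO libraries. The log2 fold change was -0.19 ± 0.09 (95% interval -0.40 to 0.01, adjusted p = 0.269, edgeR).

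Cyp51 encodes the cytochrome P450 that removes a methyl group from lanosterol. Cyp51 (ENSMUSG00000001467, mm10 chr5:4081145-4104746, minus strand) was at 16.5 and 14.2 FPKM in WT and at 17.5 and 16.1 FPKM in KO, from 1588, 1091, 1099 and 1027 counts. KO replicate 2 lay between the WT libraries, so that the groups overlapped. The log2 fold change was 0.13 ± 0.10 (95% interval -0.09 to 0.34, adjusted p = 0.475, edgeR). Insig1, the feedback regulator, holds SCAP and SREBP2 in the endoplasmic reticulum. Insig1 (ENSMUSG00000045294, mm10 chr5:28071363-28078662, plus strand) was at 21.9 and 19.9 FPKM in WT and at 24.2 and 19.1 FPKM in KO, from 1480, 1073, 1062 and 851 counts. The KO libraries held both the highest and the lowest value. Insig1 had a log2 fold change of 0.04 ± 0.11 (95% interval -0.21 to 0.29, adjusted p = 0.867, edgeR).

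The 7 genes differed far more from each other than between groups. Per length, as mean FPKM over the 4 libraries, Hmgcs1 was the highest at 48.9 and lay above 93.3% of the genes tested. Fdft1 followed at 31.1 FPKM, Insig1 at 21.3, Sqle at 16.9, Cyp51 at 16.1, Idi1 at 6.62 and Lss at 5.40, the last above 52.5% of the genes tested. Of the neighbours in this order, Sqle and Cyp51 overlapped in their 4 libraries, and the other neighbours did not. The order depends on the length that the deposited FPKM divides by, which is the length of all annotated exons of a gene. For Lss that length is 10787 bases, 2.31 times the 4667 bases of its principal transcript in GENCODE M21. Divided by the length of the principal transcript, Lss rose from 5.40 to 12.5 and passed Idi1 at 7.67, and Sqle came to 33.9 beside Fdft1 at 34.6, with overlapping libraries. Hmgcs1 stayed the highest, at 64.9.

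Other loci with the same KEGG orthologs took few reads. Idi2 had 1, 0, 1 and 1 counts in WT replicates 1 and 2 and KO replicates 1 and 2. Of the predicted genes of this kind, Gm13502 and Gm18805 had at most 6 counts in a library and the others had 0. How reads that map to several places were treated is not given in the sources used here. Beside Fdft1, Cyp51 shares 166 exonic bases, 3.76% of its exonic length, with Akap9 on the opposite strand, at 82.0 and 95.3 CPM in WT and 87.1 and 106 CPM in KO. The opposite-strand neighbours of Hmgcs1, Lss and Idi1 had at most 6 counts in a library, and Sqle and Insig1 have none.

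The other 15 enzymes of the pathway were all tested, and 0 passed an adjusted p of 0.05 with edgeR, while 7 had an unadjusted p under 0.05, all with values below 0. Of all genes tested, 2.5% passed the adjusted threshold at any fold and 20.8% the unadjusted one, here and for the lists that follow. The median log2 fold change of the 15 was -0.07, with 10 values below 0 and 5 above. In mevalonate order, Acat2 and Hmgcs1, the genes of the opening steps, had log2 fold changes of -0.07 and -0.02. The kinases and the decarboxylase further along were lower in both KO libraries than in both WT libraries. Among the 15 enzymes, 7 were lower in this way and 3 were higher, against 26.9% and 25.3% of all genes tested. Mvk, mevalonate kinase, was at 10.9 and 9.98 FPKM in WT and 7.81 and 8.42 FPKM in KO. Pmvk, phosphomevalonate kinase, was at 15.9 and 14.1 FPKM against 10.2 and 11.04 FPKM, and Mvd, the decarboxylase, was at 31.2 and 27.0 FPKM against 23.5 and 22.0 FPKM. Their log2 fold changes were -0.37 ± 0.12, -0.50 ± 0.12 and -0.36 ± 0.10, and their adjusted p were 0.121, 0.0693 and 0.0880 (edgeR), so that none of these 3 passed. Of the 8 mevalonate genes, Idi1 included, 7 had values below 0 and 4 had an unadjusted p under 0.05, against 20.8% of all genes tested. The division of the pathway into steps was not one of the gene lists and carries no test.

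Of the 10 genes after lanosterol, 4 had values below 0 and 6 above, with a median of 0.04. An unadjusted p under 0.05 was found for 3 of these 10, against 20.8% of all genes tested. Ebp, the sterol isomerase, was at 22.3 and 21.4 FPKM in WT and 16.0 and 17.2 FPKM in KO, with a log2 fold change of -0.40 ± 0.09 (adjusted p = 0.0568, edgeR), the smallest adjusted p among the 22 genes of the pathway, Insig1 included. Tm7sf2 and Lbr both encode sterol reductases that act after Cyp51. Tm7sf2 was at 4.34 and 4.01 FPKM in WT and at 2.67 and 3.11 FPKM in KO, with a log2 fold change of -0.53 ± 0.14 (adjusted p = 0.0809, edgeR), while Lbr had a log2 fold change of 0.09. The summed level of the 15 enzymes was 1029 and 918 CPM in WT and 944 and 905 CPM in KO, and the groups overlapped.

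**Figure D2:**
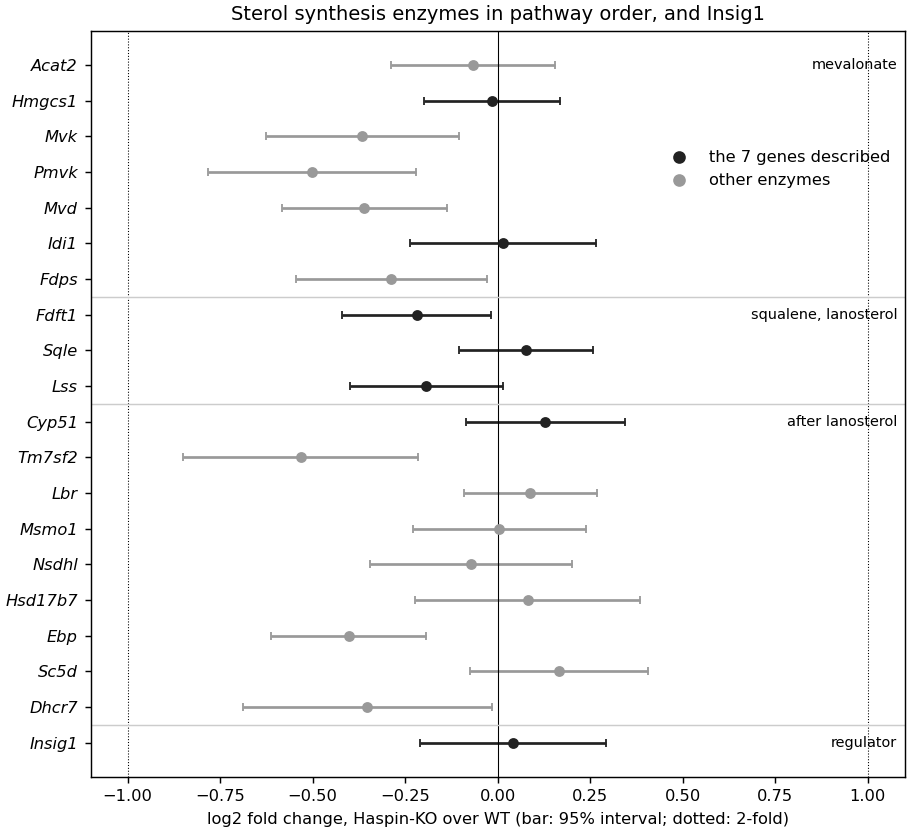
Log2 fold change of Haspin-KO over WT (x axis) with its 95% confidence interval from edgeR for 19 enzymes in pathway order and for Insig1, the 7 genes described in black and the other enzymes in grey, and dotted lines at 2-fold. No interval reached 2-fold, and the points farthest from 0 were Tm7sf2 at -0.53 and Pmvk at -0.50.

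Most genes of the surrounding network also stayed short of the threshold. Of the 12 regulators of SREBP processing, 0 passed an adjusted p of 0.05 and 0 had an unadjusted p under 0.05 with edgeR. Srebf2, which encodes SREBP2, was at 42.0 and 41.7 FPKM in WT and at 38.6 and 39.1 FPKM in KO, lower in both KO libraries, with a log2 fold change of -0.11 ± 0.07 (adjusted p = 0.370, edgeR). Of 10 genes of sterol uptake and transport, 0 passed the adjusted threshold and 2, Scarb1 and Npc2, had an unadjusted p under 0.05, a share near the 20.8% of all genes tested. Among 10 genes of fatty acid synthesis under SREBP1, 0 passed and 1 had an unadjusted p under 0.05. Scd2, a desaturase and the highest of these 10 in WT, was at 123 and 108 FPKM in WT and at 119 and 102 FPKM in KO. Among 9 genes of the isoprenoid branch, which feeds protein prenylation, dolichol and ubiquinone, 0 passed and 3 had an unadjusted p under 0.05, against 20.8% of all genes tested.

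Abca1, the transporter that exports cholesterol to lipid-poor apolipoprotein and a target of the oxysterol receptors LXR, was the only gene of the 62 tested in the 6 surrounding lists that passed an adjusted p of 0.05, and 1 of 62 is no more than the 2.5% of all genes tested that passed. It rose from 4.57 and 4.17 FPKM in WT to 6.79 and 6.90 FPKM in KO, from 1034, 754, 999 and 1032 counts. Both KO libraries lay above both WT libraries, with a gap larger than the difference within either group. The log2 fold change was 0.64 ± 0.09 (95% interval 0.44 to 0.84, adjusted p = 0.00801, edgeR), a 1.56-fold rise that stayed below the fold limit of 2. With limma on log2(FPKM + 0.1) the adjusted p was 0.207, and without WT replicate 2 it was 0.0608 (edgeR). The other 5 tested genes of the LXR and efflux list had values below 0, and the median of the 6 was -0.32. Apoe, the apolipoprotein that carries exported cholesterol and the gene with the highest level of all these lists, was at 235 and 252 FPKM in WT and at 182 and 211 FPKM in KO, with a log2 fold change of -0.31 ± 0.09 (adjusted p = 0.0934, edgeR). Nr1h2, which encodes LXR beta, was at 27.7 and 28.9 FPKM in WT and at 22.4 and 22.9 FPKM in KO, with a log2 fold change of -0.32 ± 0.08 (adjusted p = 0.0697, edgeR). Ch25h and Cyp46a1, the remaining 2 of the 8 listed, were too low to test. The summed level of this list was 660 and 700 CPM in WT and 545 and 619 CPM in KO. Both KO sums were also below both WT sums for sterol uptake and transport, at 519 and 516 against 488 and 485.5 CPM. In that list, however, 8 genes had fitted values above 0 and 2 below, with a median of 0.05. Both KO sums were lower too for the regulators (1119 and 1114 against 1057 and 1109 CPM) and the isoprenoid branch (543 and 542 against 535 and 531 CPM). Fitted values were mixed in both, with 5 above 0 and 7 below for the regulators and 4 above and 5 below for the isoprenoid branch. For fatty acid synthesis and for all 6 lists together the groups overlapped. These sums carry no test.

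**Figure D3:**
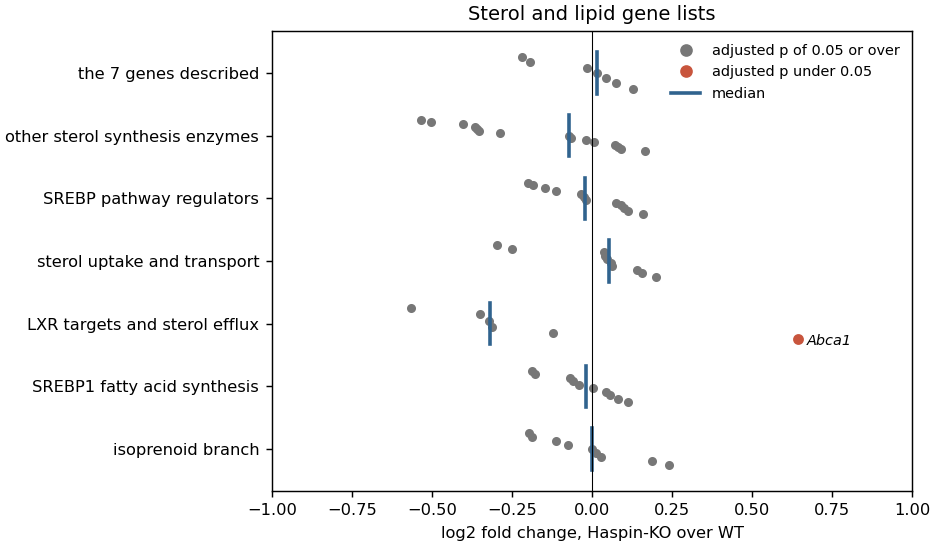
Log2 fold change of Haspin-KO over WT (x axis) of each tested gene in the list of 7 and in 6 lists of other sterol and lipid genes (y axis), with the median of each list as a blue bar. Abca1 at 0.64 is the only gene past an adjusted p of 0.05, and the list medians lie between -0.32 and 0.05.

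The deposited annotation also places genes in KEGG pathways. These sets share genes with those above and are not a separate look. Cyp51, Fdft1, Lss and Sqle are under steroid biosynthesis, and Hmgcs1 and Idi1 are under terpenoid backbone biosynthesis. Of 23 genes under steroid biosynthesis, 17 were tested and 0 passed an adjusted p of 0.05 with edgeR, 5 had an unadjusted p under 0.05, and the median log2 fold change was 0.02. Of 47 genes under terpenoid backbone biosynthesis, 24 were tested and 0 passed, 9 had an unadjusted p under 0.05 against 20.8% of all genes tested, 18 had values below 0 and the median was -0.13. Both KO libraries lay below both WT libraries for 11 of these 24 genes and above them for 2, against 26.9% and 25.3% of all genes tested. For the 17 tested genes of steroid biosynthesis these counts were 6 and 3, with 10 fitted values above 0 and 7 below.

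Replicates of the same group differed by amounts like those between the groups. Between the WT libraries, 6 of the 7 genes were higher in replicate 1, with log2 ratios from -0.04 for Idi1 to 0.21 for Cyp51 and a median of 0.16, where the median of all genes tested was 4e-04. The WT ratio of Fdft1 was 0.20, with a 95% counting interval of 0.13 to 0.28, and that of Cyp51 had an interval of 0.10 to 0.32. Between the KO libraries, 4 of the 7 were higher in replicate 1, with ratios from -0.10 for Sqle to 0.31 for Insig1 and a median of 0.09, where the median of all genes was 5e-04. The KO ratio of Insig1 had a counting interval of 0.18 to 0.44, away from 0. Hmgcs1, Cyp51, Insig1 and Fdft1 were higher in replicate 1 of both groups, 4 of 7, where 30.9% of all genes tested were. None of the 7 passed 1.5-fold between replicates, which 4.74% of all genes did in WT and 7.31% in KO. Each ratio compares 1 library with 1 library and carries no test. Among the other enzymes, Dhcr7, which makes cholesterol from its last precursor, had the log2 ratios 0.48 in WT and 0.16 in KO, Fdps had 0.33 and 0.05, and Msmo1 had 0.29 and 0.10. The summed fibroblast markers given above were also higher in WT replicate 1 than in WT replicate 2, and their part in these ratios was not tested.

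**Figure D4:**
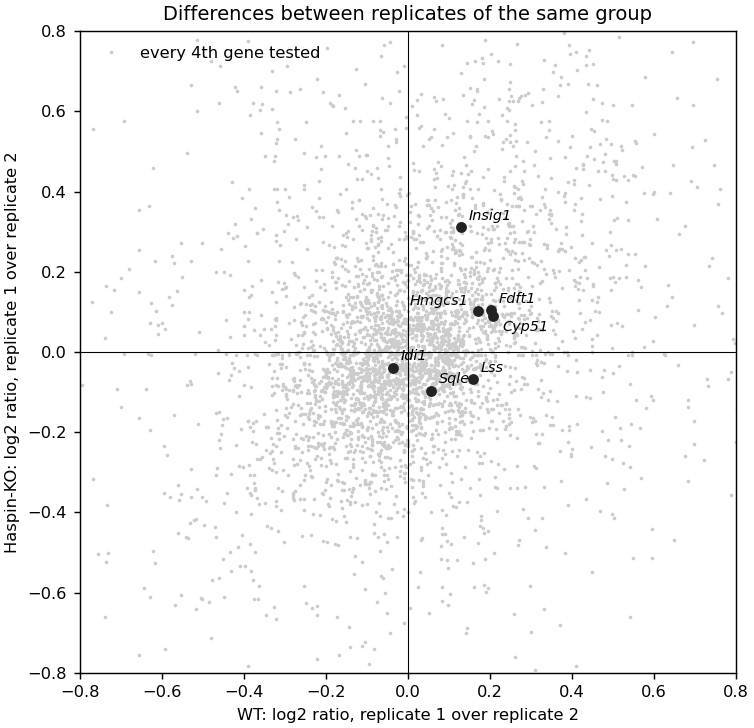
Log2 ratio of replicate 1 over replicate 2 in WT (x axis) and in Haspin-KO (y axis) for the 7 genes in black and for every 4th gene tested in grey. Hmgcs1, Cyp51, Insig1 and Fdft1 lie above 0 on both axes, and Insig1 has the largest KO ratio of the 7, 0.31.

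The profile of the 7 genes over the 4 libraries, as the mean of their centred log2 CPM, was 0.07 and -0.05 in WT and 0.02 and -0.04 in KO, so that replicate 1 of each group lay above replicate 2. The distance of single genes from this mean ran from 0.05 for Hmgcs1 to 0.20 for Fdft1, in log2 units over the 4 libraries. By nearness to the mean, Hmgcs1 ranked 78 among the 15580 genes tested. The rest of the 7 ranked from 1802 for Idi1 to 4154 for Fdft1, so that many other genes lay nearer to the mean than they did. The genes outside the lists with the nearest profiles among genes over 10 CPM were Tomm40, Snx2, Cdc5l, Fars2 and Mrpl15, at distances of 0.01 to 0.02. With 4 points per profile, this likeness is a description only.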

How the data were processed

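Total RNA of 2 WT and 2 Haspin-KO mESC libraries was sequenced by the authors, trimmed with Cutadapt (1.9.1) and mapped to mm10 with HISAT2 (2.0.1). HTSeq (0.6.1) is listed in the submitters' processing notes, and its settings are not given in the sources used here. The deposited counts are raw reads per gene. The deposited FPKM equal these counts divided by exonic length and library total, within a tolerance of 0.005 in 100% of values. A floor of 3 counts was 0.137 to 0.211 CPM, and it covers counting error only.

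Groups and replicate numbers came from the sample labels. Haspin-KO was compared with WT in edgeR (4.0.16, under R 4.3.3) after removal of low-count genes (filterByExpr) and TMM scaling, by an unblocked quasi-likelihood test that was two-sided, with Benjamini-Hochberg adjustment over 15580 genes. CPM are on the TMM scale. Genes were called at an adjusted p under 0.05 and a fold over 2. SE is the log2 fold change over the square root of F. Alternatives were DESeq2 (1.42.0), limma (3.58.1) on log2(FPKM + 0.1) and log2(FPKM + 1) for genes of at least 0.5 FPKM in 2 libraries, other scalings and filters, thinning, a replicate block and leaving out each library. The tests were tested on simulated data.

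The 7 genes and all lists were chosen with earlier results of these data known. Genes named are the 7, Haspin, list genes called or highest in level, and the 5 nearest profiles. Other list genes named in the text were chosen after their values were seen. Promoters came from RefSeq (GRCm38.p6), and transcript lengths from GENCODE M21. Values of some single genes of the lists are not reported here.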

Additional observations from a re-analysis of the deposited data

How the results depend on the processing

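Over 13 alternatives, the count of the 7 genes called at a fold over 2 was 0 throughout, and 82 of 91 values of single genes kept their direction and their side of an adjusted p of 0.05. The fit without a filter gave 125 genes called higher and 140 lower of all genes, 1172 at any fold, 8 genes of the surrounding lists at any fold, and a log2 fold change of -0.0134 for Idi1. A minimum of 10 counts in every library gave 36 lower genes. DESeq2 gave 45 lower genes and 2 list genes at any fold. Limma on log2(FPKM + 0.1) gave 21 higher, 21 lower, 42 at any fold and 0 list genes, and on log2(FPKM + 1) it gave 0 of each. With limma the adjusted p of Haspin itself reached 0.184, so that a count of 0 there says little about the 7 genes. Leaving out 1 library at a time gave 17 to 157 higher genes, 37 to 150 lower, 96 to 878 at any fold and 0 to 5 list genes at any fold, the 0 without WT replicate 2 and the 5 without Haspin-KO replicate 2. The log2 fold changes then ran from -0.0966 to 0.069 for Hmgcs1, -0.0086 to 0.0362 for Idi1 and -0.1196 to 0.1852 for Insig1, crossing 0. Where a group was left with 1 library, that library is assumed to vary like the other group. The cause of these moves was not tested.

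The fit with a replicate block gave 240 higher and 167 lower genes, 3514 at any fold, 17 list genes at any fold and 2 of the 7 at any fold, Fdft1 (log2 fold change -0.22, adjusted p = 0.00694) and Lss (-0.19, adjusted p = 0.0498, edgeR). Over all alternatives the adjusted p ran from 0.00694 to 0.705 for Fdft1 and from 0.0498 to 0.745 for Lss. The labels do not tie libraries of the same number to a shared day or culture, and the differences between replicates 1 and 2 correlated between WT and KO with r = 0.339 over 15580 genes, which are not independent. With 2 libraries per group, the 95% intervals of the 7 genes leave room for changes between 0.747-fold and 1.27-fold.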
